A study of Drosophila melanogaster with 16 samples.

Results

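GABA is the main fast inhibitory transmitter of the insect brain. Ionotropic GABA receptors are pentameric ligand-gated channels whose subunits belong to the Cys-loop family, and metabotropic GABA-B receptors act more slowly through G proteins. P1 neurons are male-specific interneurons that promote courtship, and they are known to be held in check by GABAergic neurons that carry pheromone signals. The genes described here are the 7 GABA receptor genes of Drosophila melanogaster that carry the symbols Rdl, Lcch3, Grd, CG8916, GABA-B-R1, GABA-B-R2 and GABA-B-R3. They were chosen by name, and all 7 were matched by FlyBase identifier among the 17559 genes of the count tables. The question was how strongly P1 neurons carry each receptor transcript and whether these levels differ between naive and mated males.

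The 8 libraries came from living males. The design text gives their age as 3 to 6 days and the protocol has them kept alone for 4 to 6 days, ranges that do not match at the young end. All of them, naive and mated, carried the reporter UAS>stop>GFP over a wild-type chromosome, together with fruFLP and the driver NP2631-Gal4. Green fluorescent protein then marks cells where the driver overlaps a recombinase made from the fruitless (fru) locus. The 4 naive libraries came from males that had not been mated, and the 4 mated libraries from males that had been paired with a female. The design text also speaks of paired naive and mated sets, but the labels do not say which libraries belong together, so no test or interval here takes pairing into account. Marked cells, of which the cluster holds 12, were drawn into a patch pipette, and polyadenylated RNA was amplified for 15 rounds as cDNA and for 12 more as a library. The marker therefore labels cells by driver overlap and position, and the number of cells and of animals behind each library is not in the labels, so p-values measure only the spread between these libraries.

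Total counts ran from 6897560 to 9162763 in naive and from 7440583 to 13651313 in mated libraries. Mean log2 totals differed by 0.31 (two-sided exact permutation test, p = 0.2, where the smallest p possible was 0.0286). The SD of log2 totals was 0.193 in naive and 0.399 in mated libraries. Of the genes checked as markers, the 5 neuron genes elav, nSyb, Syt1, brp and fne were read in every library. Both fru and doublesex (dsx), which define P1 neurons, were also read in all 8. The naive libraries held fru at 344 to 1143 CPM and the mated ones at 50.8 to 542 CPM. Its log2 difference, mated minus naive, was -1.44 ± 0.54 (SE; edgeR, adjusted p = 0.325), larger in size than that of any tested GABA receptor gene below. Some transcripts of other cell types moved with the groups. The 6 fat body genes summed to 242 to 604 CPM in naive and 1225 to 2939 CPM in mated libraries, and the 5 hemocyte genes to 0.321 to 4.50 and 7.60 to 18.2 CPM, with no overlap of groups in either list. Most of the hemocyte sum in mated libraries 1, 3 and 4 was Ppn, at 7.02, 8.04 and 16.5 CPM. In mated library 3, Hml, NimC1 and He were at 0. The hemocyte gene He was at 0 in all libraries but mated library 2, where it had 17 counts, and eater had no more than 2 counts in any library. The 7 glial genes summed to 108 to 314 CPM in naive and 288 to 918 CPM in mated libraries, although the glial regulator repo was at 0 in naive library 3 and mated library 2. The 6 photoreceptor genes summed to 1054 to 1683 against 1285 to 1839 CPM, a sum made up mostly of norpA (means of 1328 and 1120 CPM). Other photoreceptor genes had higher mated means, with Arr2 at 12.9 and 179 CPM (edgeR, adjusted p = 0.0196), Arr1 at 3.67 and 68.7 CPM and ninaE at 15.0 and 86.8 CPM. The groups did not overlap for Arr1 and Arr2. The 5 matched muscle genes summed to 3.73 to 18.0 against 8.82 to 82.7 CPM. The part of such transcripts in the results below was not tested, except where a level is given relative to neuron genes.

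Levels are normalised read counts (CPM), with library sizes scaled by the trimmed mean of M-values (TMM). Rdl encodes the subunit of the GABA-gated chloride channel and is named for resistance to dieldrin, an insecticide that blocks the channel. The gene (FBgn0004244) spans bases 9145838 to 9182149 of the minus strand of chromosome arm 3L on build BDGP6, with 6 coding transcripts and a longest protein of 607 residues. It had the highest read count of the 7 genes in every library. Its level was 3464.0, 4305, 5883 and 3507 CPM in naive libraries 1 to 4 and 1554, 1274, 2794 and 2675 CPM in mated libraries 1 to 4. Every mated library lay below every naive one, and mated libraries 3 and 4 came closest to the naive range. The naive mean was 4289.7 ± 1131 CPM and the mated mean 2074 ± 772 CPM (SD, n = 4), which was 2.07-fold lower with a 95% interval of 1.36 to 3.14. The log2 difference, mated minus naive, was -1.05 ± 0.28 (SE). It did not pass the threshold of 0.05 after adjustment over the 7090 genes tested (edgeR, adjusted p = 0.151). In these pooled extracts, fewer cells of a type and less RNA per cell cannot be told apart.

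Lcch3 encodes a further ionotropic subunit that, together with Grd, forms GABA-gated cation channels when expressed in Xenopus oocytes. It (FBgn0010240) spans bases 15925105 to 15928529 of the plus strand of the X chromosome and encodes a protein of 495 residues. The naive libraries had 85.2, 43.0, 129 and 76.8 CPM, and the mated ones 56.5, 69.0, 61.2 and 48.5 CPM. The naive group held both the lowest and the highest value, so the groups overlapped. The log2 difference was -0.50 ± 0.42 (SE), with an interval from -1.41 to 0.40 (edgeR, adjusted p = 0.777). This interval includes a difference as large as that of Rdl, and a lack of change was not shown. On the reference annotation, 24.0% of the exonic length of Lcch3 overlaps Ranbp16 on the opposite strand, and 7.36% overlaps an antisense RNA gene, asRNA:CR45000. Ranbp16 was read at 88.4 to 272 CPM. The use of strand in counting is not given in the sources used here, so reads in the shared stretch cannot be assigned with certainty.

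Grd and CG8916, the remaining members of the ionotropic group, were near or at 0 in most libraries and did not pass the filter on low counts. Grd (FBgn0001134) spans bases 17823333 to 17839767 of arm 3L and CG8916 (FBgn0030707) bases 15921955 to 15924558 of the X chromosome, both on the plus strand. Grd, the partner of Lcch3 in the oocyte channels, had 23 counts (2.96 CPM) in naive library 4 and 0 counts in the other 7 libraries. A count of 0 there allows a level of up to 0.217 to 0.492 CPM, the worth of 3 counts, which covers counting error only. CG5577, which overlaps 27.5% of the exonic length of Grd on the opposite strand, had 1 count in naive library 4 and 257 in mated library 2. With Grd read in 1 library only and the use of strand not given, whether its reads follow those of CG5577 cannot be judged. CG8916, a predicted subunit gene that lies 546 bases from Lcch3, had 0, 4, 2 and 2 counts in naive and 0, 295, 0 and 0 counts in mated libraries. The 295 counts were 25.5 CPM, and the other 7 libraries held no more than 0.641 CPM each. In neither gene can a difference between naive and mated males be read from these values, since 1 library holds nearly all of the counts.

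**Figure D1:**
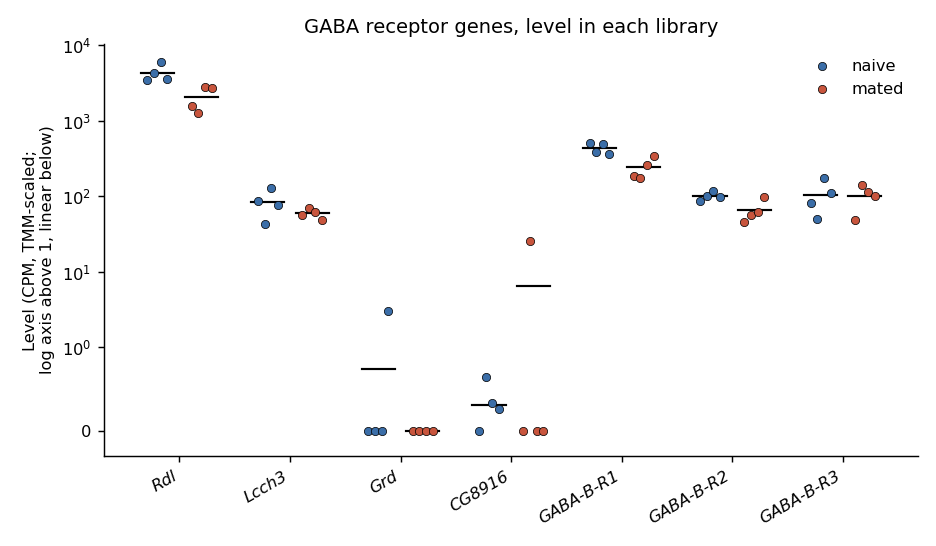
Levels of the 7 GABA receptor genes in each library, in TMM-scaled CPM on an axis that is logarithmic above 1 and linear below. Points are libraries and bars are group means. Naive and mated points are apart for Rdl (3464.0 to 5883 against 1274 to 2794 CPM) and GABA-B-R1 (357 to 500.1 against 172 to 339.5 CPM), while Grd and CG8916 each have 1 library above the rest.

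GABA-B-R1 carries the GABA-binding site of the metabotropic receptor, and GABA-B-R2 is its obligate partner, which reaches the G protein. GABA-B-R1 (FBgn0260446) spans bases 15016331 to 15034704 of the plus strand of arm 2L and encodes up to 840 residues. GABA-B-R2 (FBgn0027575) spans bases 21770333 to 21775840 of the minus strand of arm 3R and encodes up to 1223 residues. Naive libraries 1 to 4 held GABA-B-R1 at 500.1, 385, 485 and 357 CPM, and mated libraries 1 to 4 at 184, 172, 260.2 and 339.5 CPM. The groups did not overlap, but the gap was narrow, from 339.5 CPM in mated library 4 to 357 CPM in naive library 4. The naive mean was 432 ± 71.3 CPM and the mated mean 239 ± 77.6 CPM (SD, n = 4), 1.81-fold lower with an interval of 1.2 to 2.72. The log2 difference of -0.855 ± 0.276 (SE) did not pass the threshold (edgeR, adjusted p = 0.233).

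The level of GABA-B-R2 was 84.9, 101, 116 and 96.0 CPM in the naive and 45.7, 55.8, 61.3 and 98.0 CPM in the mated group. Mated library 4 reached into the naive range and the other 3 lay below it. The log2 difference was -0.61 ± 0.38 (SE), with an interval from -1.42 to 0.20 (edgeR, adjusted p = 0.639). GABA-B-R3, a further metabotropic receptor gene of insects (FBgn0031275, arm 2L, bases 749945 to 762399, plus strand), had 80.8, 49.9, 173 and 109.6 CPM in the naive and 48.6, 141, 112 and 100.6 CPM in the mated group. The group means were nearly the same, at 103 ± 52.4 and 101 ± 38.7 CPM (SD, n = 4). The interval of its log2 difference, from -0.98 to 0.90 around -0.04 (edgeR, adjusted p = 0.998), still allows a change of the size seen for GABA-B-R1 in either direction. The sign of this difference was positive in 8 of 21 alternative settings.

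Of the 7 genes, 5 passed the filter on low counts and 0 passed the adjusted threshold with edgeR or with limma voom, against 0.381% of all genes tested with edgeR (0.0423% lower and 0.339% higher in the mated group). DESeq2 called 1 of them, Rdl (log2 -1.04, adjusted p = 0.0446), against 1.64% of its tested genes called lower. At an unadjusted p under 0.05, 2 of the 5 were lower in edgeR (Rdl and GABA-B-R1), against 5.02% of all genes tested. The same 2 genes had groups that did not overlap, with the mated libraries below, against 3.4% of all genes tested. Groups lay apart with the mated libraries above in 4.26% of all genes tested, and in either direction in 7.66%. All 5 log2 differences were negative, with a median of -0.61, while 50.5% of all genes tested were negative and their median was -0.01.

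**Figure D2:**
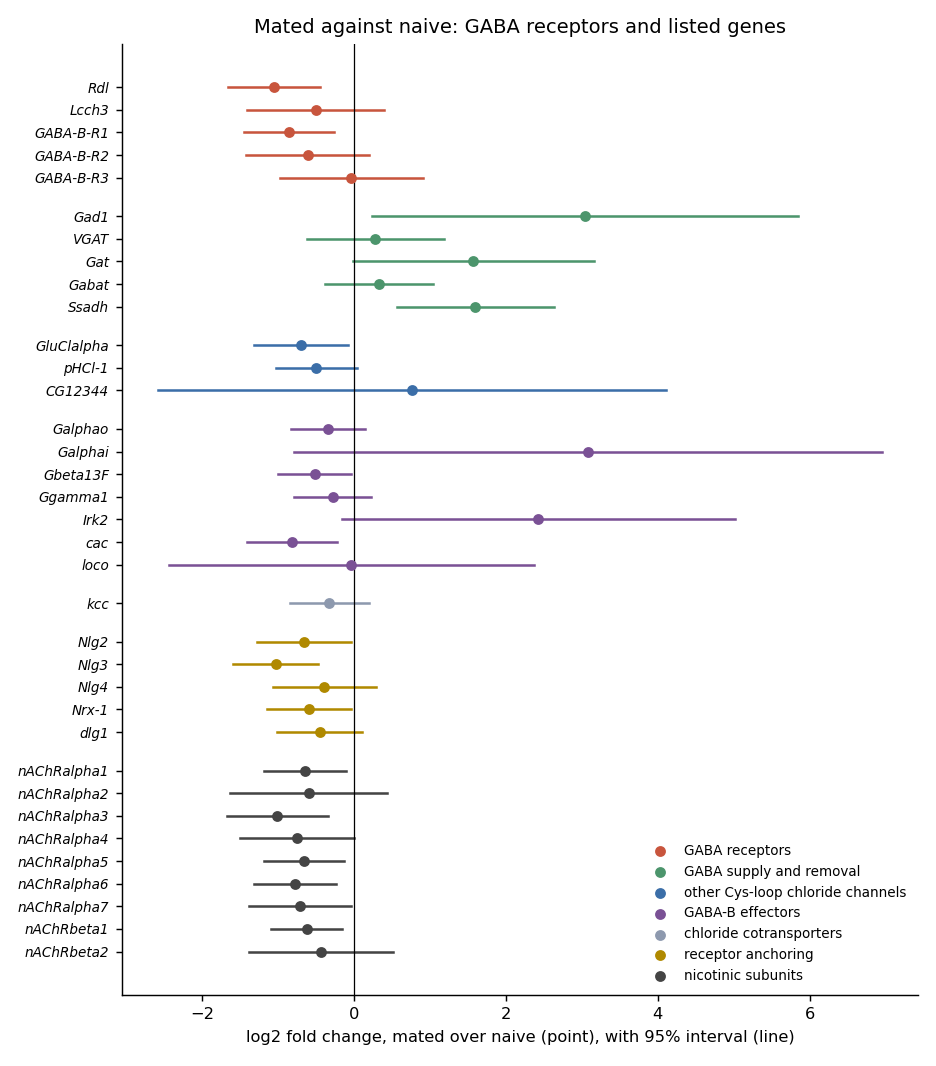
Log2 difference, mated minus naive, with its 95% interval from edgeR, for the tested GABA receptor genes, the other tested genes of the GABA pathway and the nicotinic subunits. The intervals of Rdl (-1.65 to -0.44) and GABA-B-R1 (-1.45 to -0.26) lie below 0, those of Lcch3, GABA-B-R2 and GABA-B-R3 cross 0, and no gene passed after adjustment over all genes.

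The number in the sample titles, which may mark a batch, was largely confounded with group. Numbers 1105, 1113 and 1125 held only naive libraries and 1120 only mated ones. Number 1119 held naive library 3 and mated libraries 1 and 3, a single naive library against a pair of mated ones, and no test was run within it. There the naive library stood above both mated libraries for all 5 tested receptor genes, at 5883 against 1554 and 2794 CPM for Rdl. The values were 485 against 184 and 260.2 CPM for GABA-B-R1 and 173 against 48.6 and 112 CPM for GABA-B-R3. Naive library 3 also held the highest naive level of 4 of these genes, GABA-B-R1 being the exception. With the title number as a replicate block, the group difference rests on these 3 libraries alone, with 2 residual degrees of freedom. In that fit the log2 difference was -1.44 for Rdl (edgeR, adjusted p = 0.702) and -1.10 for GABA-B-R3 (edgeR, adjusted p = 0.71).

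To compare genes with each other, levels were divided by exonic length. On this scale, in CPM per kb of exon over all 8 libraries, Rdl stood at 354 ± 165, GABA-B-R1 at 59.5 ± 22.0 and Lcch3 at 37.4 ± 14.3 (SD, n = 8). GABA-B-R2 followed at 20.6 ± 6.30 and GABA-B-R3 at 14.5 ± 6.06 CPM per kb. CG8916 and Grd came last, at 1.66 ± 4.44 and 0.0909 ± 0.257 CPM per kb, with SDs larger than the means. The step from Rdl to GABA-B-R1 was 5.95-fold and held in all 8 libraries. The next steps were smaller. GABA-B-R1 was above Lcch3 in 7 libraries, Lcch3 above GABA-B-R2 in 7 and GABA-B-R2 above GABA-B-R3 in 6, and the ranges of these neighbours overlapped. Exonic length depends on the annotated ends of each gene, which for Rdl reach 8994 bases against a longest coding sequence of 1824 bases. Per kb of coding sequence, Rdl exceeded GABA-B-R1 by 13.1-fold, and the mean of GABA-B-R3 (26.0 ± 10.9) was above that of GABA-B-R2 (22.4 ± 6.84). GABA-B-R3 was the higher of the pair in only 4 of 8 libraries, and their ranges overlapped. In naive libraries the mean of GABA-B-R2 stayed above (27.1 against 26.4), and in mated libraries it was below (17.8 against 25.7), so no order of this pair can be given on that scale.

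**Figure D3:**
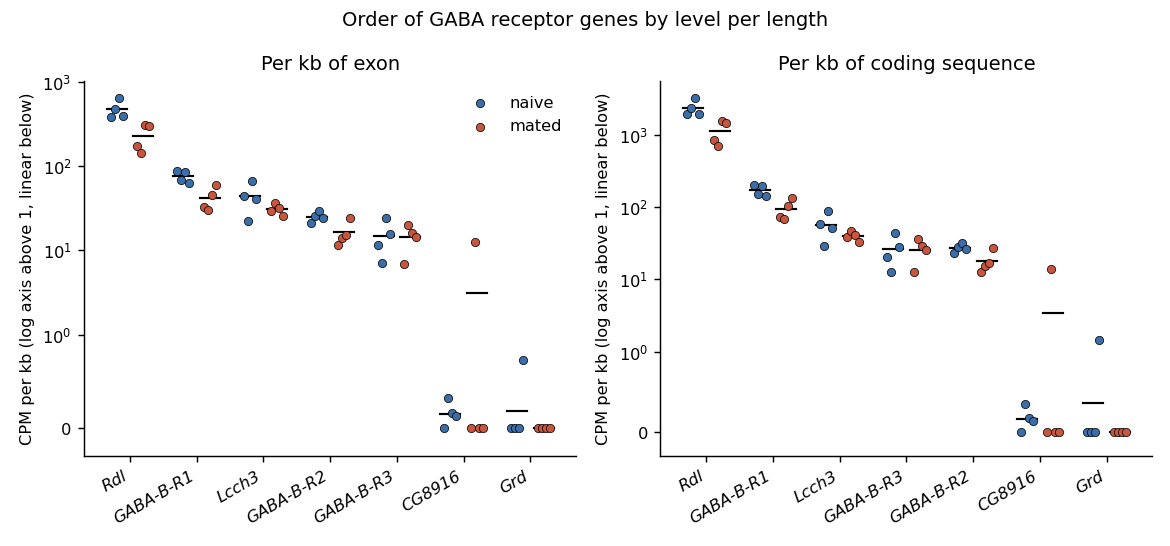
Levels per kb of exon and per kb of the longest coding sequence for the 7 GABA receptor genes, in CPM per kb on axes that are logarithmic above 1 and linear below, with 1 point per library and bars at the group means. Rdl is highest on both scales. Per kb of coding sequence, the naive bars of GABA-B-R2 and GABA-B-R3 are nearly level (27.1 and 26.4) and the mated bar of GABA-B-R3 is the higher (25.7 against 17.8).

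The balance between subunits was described by ratios within each library. Of the summed ionotropic level per kb of exon, Rdl made up 91.5 ± 2.65% in the naive and 85.6 ± 8.05% in the mated group (SD, n = 4), with ranges of 89.6 to 95.4% and 74.3 to 92.1%. The mated range held the lowest shares and overlapped the naive one. Its minimum, 74.3%, was that of mated library 2, where the CG8916 counts (12.6 CPM per kb of exon) entered the sum. The ratio of GABA-B-R1 to GABA-B-R2, the partners of the metabotropic dimer, was 3.11 ± 0.716 in the naive and 2.62 ± 0.372 in the mated group per kb of exon. That of Rdl to GABA-B-R1 was 6.28 ± 1.42 and 5.41 ± 0.928, again with overlapping groups. These sizes depend on the length used. Per kb of coding sequence, the Rdl share was 97.6 ± 0.773% in the naive and 95.7 ± 2.62% in the mated group. The ratio of GABA-B-R1 to GABA-B-R2 was then 6.41 ± 1.47 and 5.39 ± 0.766, and the groups overlapped for both measures.

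The receptors were also read against the 5 neuron genes, in a comparison chosen after the data had been seen. All 5 had lower mated means, while 50.5% of all genes tested had negative differences. An unadjusted p under 0.05 was found in 3 of the 5 (edgeR), against 5.02% of all genes tested that were lower at that level. After adjustment 0 passed, against 0.381%. For 2 of them, elav and nSyb, the groups lay apart with the mated libraries below, against 3.4% of all genes tested. The summed level of the 5 genes ran from 12160.1 to 15725 CPM in the naive and from 7658 to 12569 CPM in the mated group. Mated libraries 1 and 2, with the lowest Rdl and GABA-B-R1 levels, also had the lowest neuron sums, 8479 and 7658 CPM. Rdl as a percentage of this sum was 28.5, 27.4, 37.9 and 26.5% in naive and 18.3, 16.6, 22.2 and 21.3% in mated libraries. The groups stayed apart, with means of 30.1 ± 5.29% and 19.6 ± 2.59% (SD, n = 4), a ratio of 1.53. The largest share of the sum is fne, at a mean of 7128 CPM in naive libraries. Against each neuron gene alone, the ratio of group means for Rdl ran from 1.30 (Syt1 and elav) to 1.70 (fne). The groups lay apart for 4 of the 5 genes and overlapped against elav, where Rdl was 3.50 to 6.06 times elav in naive and 2.99 to 3.74 times in mated libraries. GABA-B-R1 made up 3.10 ± 0.732% and 2.30 ± 0.280% of the sum, and here the groups overlapped, as they did against each of the 5 genes alone. Against neuron genes the mated means of Lcch3 and GABA-B-R3 were no longer lower, at 0.596% naive against 0.610% mated for Lcch3 and 0.731% against 1.03% for GABA-B-R3. GABA-B-R2 stood at 0.704% and 0.634%. No ratio to the P1 genes fru and dsx was taken. The log2 difference of fru (-1.44) was larger in size than that of Rdl (-1.05), and that of dsx (-0.34) was smaller. Whether Rdl is lower relative to the P1 cells in a library was therefore not tested. Ratios to neuron genes were taken for the receptors only, so they have no share over all genes to be read against.

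**Figure D4:**
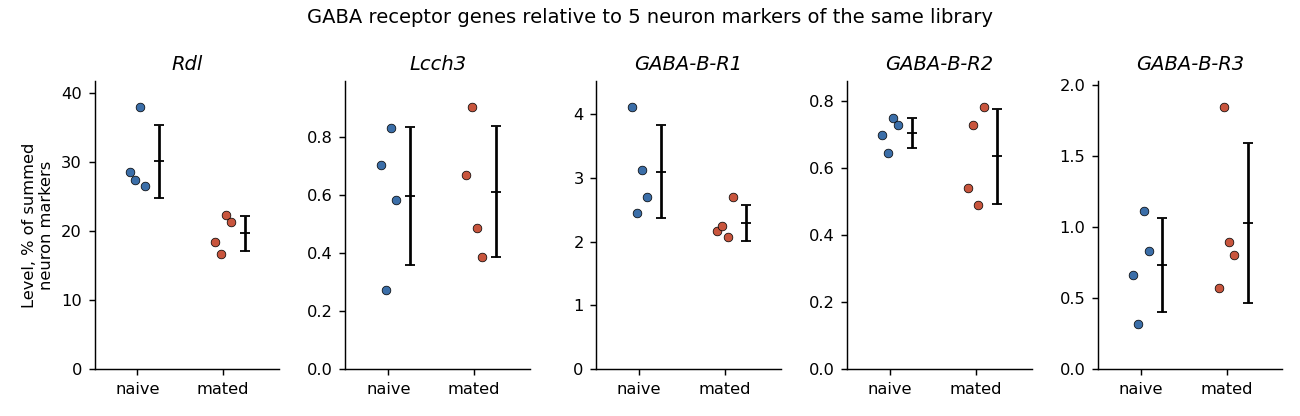
Levels of the 5 tested GABA receptor genes as a percentage of the summed level of elav, nSyb, Syt1, brp and fne in the same library, on axes that start at 0, with 1 point per library and the mean ± SD of each group beside the points. Naive and mated points remain apart for Rdl (26.5 to 37.9% against 16.6 to 22.2%) and overlap for the other genes.

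For each tested receptor gene, the 3 genes with the most similar profile over the 8 libraries were named by the root mean square difference of log2 levels centred on each gene's mean. The nearest to Rdl were rdo at 0.13, Hk, a potassium channel beta subunit, at 0.136 and an identifier without a matched name (FBgn0264255) at 0.149. These distances compare with a median of 1.114 over all tested genes. The nearest to GABA-B-R1 were Syx1A, the syntaxin of the vesicle fusion machinery, wdb and Stacl, at 0.113, 0.131 and 0.149. GABA-B-R2 lay nearest to the adhesion genes Nrx-1, klg and Nrg, at 0.1, 0.123 and 0.142. Lcch3 was nearest to CG32052, Hsp83 and Srrm234, at 0.148 to 0.178. GABA-B-R3 had the most distant neighbours, CG6495, Stat92E and CG43902, at 0.216 to 0.271. With 7090 genes tested, GABA-B-R1 ranked 58 among those nearest to Rdl, at 0.281. GABA-B-R2 ranked 59 among those nearest to GABA-B-R1, at 0.255. The libraries share depth, group and cell makeup across genes, so these likenesses are descriptions.

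The other genes of the GABA pathway were listed by role. Of 31 such genes 21 were tested, 8 with higher and 13 with lower mated levels, and 0 passed the adjusted threshold with edgeR. At an unadjusted p under 0.05, 2 were higher and 6 lower, against 5.54% and 5.02% of all genes tested. The median log2 difference was -0.32, against -0.01 over all genes tested.

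All 5 genes that make, load, take up or break down GABA had higher mated means, with a median log2 difference of 1.57. Gad1, the enzyme that makes GABA, had 353, 1, 130 and 5 counts in naive and 2808, 755, 466 and 583 counts in mated libraries. Its spread among naive libraries was wide, and its log2 difference was 3.04 ± 1.27 (SE; edgeR, adjusted p = 0.423). Ssadh, which completes GABA breakdown, had a naive mean of 26.9 ± 10.6 CPM and a mated mean of 81.5 ± 17.2 CPM (SD, n = 4), without overlap (3.03-fold higher, 95% interval of the log2 difference 0.57 to 2.63; edgeR, adjusted p = 0.201). Both Gad1 and Ssadh had an unadjusted p under 0.05. Gat, the GABA transporter known from glia, was at 23.4 and 69.8 CPM, and VGAT, the vesicular transporter, at 66.7 and 81.2 CPM. The glial sums given above were also higher in 3 mated libraries than in any naive one, and the part of glia in these values was not tested.

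Genes on the receiving side mostly had lower mated means, as the receptors did. GluClalpha, a glutamate-gated chloride channel of the same family, was at 1594 ± 296 and 982 ± 419 CPM (log2 -0.70 ± 0.29 SE; edgeR, adjusted p = 0.4). Among the genes through which GABA-B receptors act, 5 of 7 tested had lower mated means. The other 2 had higher ones at low levels with wide spread, Galphai at 1.32 and 11.3 CPM (log2 3.08 ± 1.81 SE; edgeR, adjusted p = 0.611) and the potassium channel gene Irk2 at 4.49 and 24.3 CPM (log2 2.43 ± 1.21 SE; edgeR, adjusted p = 0.511). The calcium channel gene cac (log2 -0.81 ± 0.28 SE; edgeR, adjusted p = 0.268) and the G protein gene Gbeta13F (log2 -0.51 ± 0.22 SE; edgeR, adjusted p = 0.433) had unadjusted p under 0.05. Ggamma1 had the highest level of that list, at 2466 and 2036 CPM. The chloride exporter gene kcc, which sets the driving force of GABA currents, was at 620.3 and 497 CPM. All 5 tested genes of synaptic anchoring, neuroligins and their partners, had negative differences with a median of -0.59. Of these, Nlg2, Nlg3 and Nrx-1 had an unadjusted p under 0.05. Nlg3 ranged from 605 to 831 CPM among naive and from 248 to 484 CPM among mated libraries, without overlap (log2 -1.03 ± 0.26 SE; edgeR, adjusted p = 0.124).

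The negative differences were shared with receptors for other transmitters. All 9 tested nicotinic acetylcholine receptor subunit genes had lower mated means, from -1.01 for nAChRalpha3 to -0.43 for nAChRbeta2, with a median of -0.66. Of all genes tested, 50.5% had negative differences. The unadjusted p was under 0.05 in 7 of the 9 nicotinic genes, against 5.02% of all genes tested that were lower at that level. Their groups lay apart, with the mated libraries below, in 6 of 9, against 3.4% of all genes tested. After adjustment 0 passed with edgeR, against 0.381%. Of 8 further tested glutamate receptor genes, ionotropic and metabotropic, 6 had negative differences, with a median of -0.30, and 1 had an unadjusted p under 0.05. This was the NMDA receptor subunit gene Nmdar2, at 190 and 84.4 CPM (log2 -1.17 ± 0.38 SE; edgeR, adjusted p = 0.239). The ends of the glutamate list were Grik, at 9.05 and 0.673 CPM (log2 -3.695 ± 1.886 SE, edgeR, adjusted p = 0.527), and Ekar, at log2 0.39. Both were at low levels. The median of the 5 tested GABA receptor genes, -0.61, lay between these lists, and no difference between the lists was tested.

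The differences of Rdl and GABA-B-R1 were negative in all 21 alternative settings, and their size depended on them. That of Rdl ran from -1.44 to -0.74 on the log2 scale, with an adjusted p from 0.0446 to 0.702. That of GABA-B-R1 ran from -1.13 to -0.66, with an adjusted p from 0.0705 to 0.702. Groups that do not overlap keep their direction whichever library is left out, so the sign is no further evidence.

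**Figure D5:**
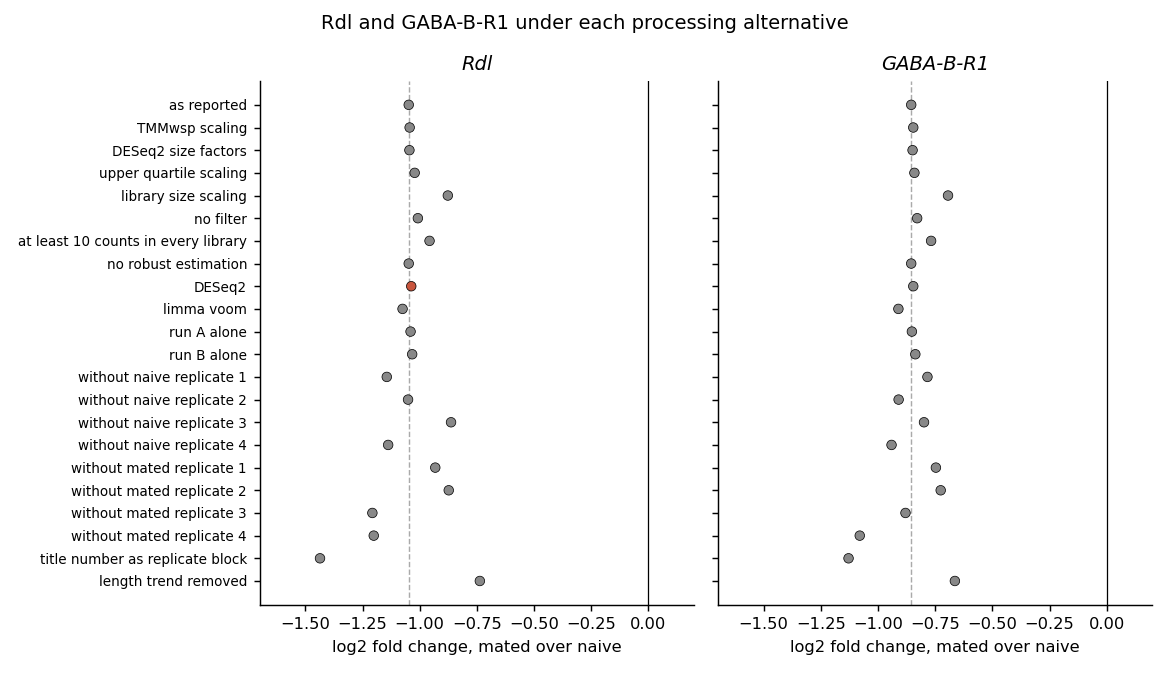
Log2 difference, mated minus naive, of Rdl and GABA-B-R1 as reported and under 21 alternatives, with 1 point per setting, coloured red where the adjusted p is under 0.05, and a dashed line at the reported value. Both genes stay below 0 throughout (-1.44 to -0.74 and -1.13 to -0.66), and the red point is that of Rdl with DESeq2.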

How the data were processed

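The values are raw read counts per gene, deposited by the authors as 1 table per library, with an A run, a B run and their sum. The 16 entries of the series are the runs of 8 libraries, and the sums were used. Per the submitters' processing notes, cutadapt, HISAT2 2.2.1, featureCounts 1.6.2, MultiQC, edgeR, limma and DESeq2 2.11 were used with builds dm6 and BDGP6. The use of strand is not given in the sources used here. No molecular identifiers are mentioned, so amplified copies of a molecule may be counted separately, and floors cover counting error only.

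Genes were kept by filterByExpr, scaled by TMM and tested with edgeR 4.0.16 (R 4.3.3; robust glmQLFit, glmQLFTest, group only), with Benjamini-Hochberg adjustment over 7090 genes and a threshold of 0.05. A standard error is the size of the log2 coefficient over the square root of F. The biological coefficient of variation was 0.936. limma 3.58.1 (voom) and DESeq2 1.42.0 were alternatives, and the code was tested on simulated counts. Names matched 17254 of 17559 identifiers, and the 305 others held 3.12 to 4.59% of a library's counts and were kept. Lengths and overlaps came from Ensembl BDGP6. Profiles used log2(CPM + 2). Columns left out numbered 0, and 1 listed marker, bent, had no match.

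The members, lists and named genes were chosen with earlier results of these data known. Named genes are mainly the 7 receptors, a part of the listed genes with an unadjusted p under 0.05 or at the ends of a range, and the 3 nearest profiles of each tested receptor. Nicotinic subunit genes between the ends of their range were not named, also where their unadjusted p was under 0.05. Gat, Ranbp16 and CG5577 were named for their role or overlap after values were seen. The design text speaks of paired sets, but the labels do not tie libraries into pairs, so the fit has no pairing. The title numbers are not stated to mark pairs, and only number 1119 holds both groups.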

Additional observations from a re-analysis of the deposited data

Results flagged for a closer look

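Both ionotropic genes near 0 had 1 library far from the other 3 of its group. Grd stood at 2.96 CPM in naive library 4 against 0 in the other naive libraries. CG8916 stood at 25.5 CPM in mated library 2 against 0 in the other mated libraries. Of 38 groups of 4 libraries examined for such a gap, 2 were flagged. Both hold 1 value above 0 and 0 elsewhere, which fixes the gap in advance. The usual chance rate of about 1 in 20 therefore does not apply to them. Mated library 2 also held 94 counts of the hemocyte gene Hml, 66 of NimC1 and 17 of He. The other hemocyte genes on the list did not stand out there. In that library eater was at 0 and Ppn at 34 counts (2.94 CPM), its lowest mated level. Naive library 4 held 18 counts of NimC1, while NimC1 was at 0 in the other 6 libraries. Whether these transcripts have a common source was not tested. Without mated library 2, the mean of CG8916 over libraries was 0.175 CPM in place of 3.34 CPM.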

How the results depend on the processing

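The count of genes past the threshold was 27 of all tested and moved with the processing. It was 46 with library-size scaling, 56 without the filter, 64 with at least 10 counts in every library, 423 with DESeq2, 3 with limma voom, 47 with run B alone and 14 with the length trend removed. Leaving out 1 library gave 6 to 53. It was 11, 12, 41 and 7 without naive libraries 1 to 4 and 6, 16 and 53 without mated libraries 1, 2 and 3. With the title number as a replicate block it was 0 with edgeR, with 452 genes at an unadjusted p under 0.05. That block leaves 2 residual degrees of freedom, and the numbers are not stated to mark the paired sets of the design text. DESeq2 called 1 receptor gene in place of 0, and 2 pathway genes in place of 0, Ssadh (adjusted p = 0.00372) and Nlg3 (adjusted p = 0.0129). GABA-B-R3 changed sign, to 0.154 with library-size scaling, 0.011 without the filter, 0.075 at 10 counts, 0.061 with voom, 0.008 in run B and 0.265 with the length trend removed, and ran from -0.27 to 0.32 without 1 library. CG12344 turned from 0.76 to -0.10 with voom and ran from -0.081 to 1.32 without 1 library. In the block, VGAT turned to -0.49 and kcc to 0.20. Relative to neuron markers, a setting chosen after seeing the data, Lcch3 turned to 0.034 and GABA-B-R3 to 0.49. The cause was not tested. The median of all genes moved from -0.01 to 0.165 with library-size scaling and to 0.19 in the block. Counts of Grd and CG8916 were mostly at or under the floor of 3, and no difference can be read from them.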

Other observations

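Some other chloride channel subunits of the Cys-loop family had most of their counts in a few libraries, while 2 of the 8 listed had at least 3 counts in every library. HisCl1, a histamine-gated channel known from the visual system, had 352 counts in mated library 1, 15 in naive library 1 and 0 in the other 6. SecCl had 98 counts in mated library 3 and 39 in naive library 1, with no more than 6 elsewhere. The inward rectifier gene Irk2 had 655 counts in mated library 2 and 4 to 163 in the others, and Irk3 had 110 counts in the same library and no more than 30 elsewhere. Mated library 2 was the library with the CG8916 counts. The histamine receptor gene ort, CG6927 and nAChRbeta3 were listed at 0 in every library.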
